A study of Mus musculus with 9 samples.

Results

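The matrix metalloproteinases (MMPs) and the tissue inhibitors of metalloproteinases (TIMPs) were examined in mouse retinal ganglion cells (RGCs) in culture. The members were the 10 genes Mmp2, Mmp3, Mmp9, Mmp10, Mmp13, Mmp14, Mmp19, Timp1, Timp2 and Timp3, found by their symbols among the 22322 genes of the deposited table. Of these, 9 passed the filter on low counts that kept 12145 genes in all, and Timp3 did not. The same table held 17 other MMP and TIMP genes, of which 6 passed the filter. The 10 genes were chosen by their measured RNA levels and fold changes in the 3 comparisons below, together with their family, so these values are a description, with no test.

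MMPs are zinc-dependent endopeptidases that cut collagens, laminin, fibronectin, proteoglycans and surface proteins. Most are secreted as inactive proenzymes and become active once their propeptide is removed, often by plasmin or by another MMP. TIMPs bind the active site and block it. In the retina and optic nerve head this system is known for its part in the turnover of the matrix around ganglion cells, and loss of laminin after a rise in Mmp9 has been tied to death of these cells. RNA levels say nothing of how much enzyme was active.

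RNA-sequencing compared 3 groups of wild-type RGCs, each with 3 replicate wells: normal RGCs, aging RGCs treated no further, and aging RGCs + USCs medium. Aging was modelled with D-galactose, at 30 mg/mL in the study's methods, and the third group also received medium conditioned by human urine-derived stem cells (USCs). The RGCs were bought as a culture and passaged with trypsin in high glucose medium with fetal bovine serum. How long the sequenced wells were exposed to either agent is not stated in the labels or the methods. No group held RGCs in unconditioned urine stem cell medium or normal RGCs in USCs medium, so what the USCs released and the base medium cannot be told apart. The wells share a source, so the spread between them may be technical.

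The libraries held 18189616 to 22342288 counts. Of 15 RGC markers, 9 stayed under 1 CPM (counts of a gene scaled to the size of its library) in every library and Pou4f2, Pou4f3 and Rbfox3 were at 0, while Rbpms averaged 61.2 CPM in the normal, 49.6 CPM in the aging and 48.0 CPM in the USCs medium wells. Other expressed RGC markers took other courses in the same order of groups, with 63.6, 38.4 and 17.3 CPM for Nefl, 18.9, 11.95 and 13.04 CPM for Isl1 and 4.46, 2.59 and 21.2 CPM for Tubb3. Of 9 epithelial markers, Krt8 averaged 410, 560 and 714 CPM, Krt18 321, 252 and 281 CPM and Krt19 365, 274 and 258 CPM. Epcam averaged 1.97, 2.06 and 1.42 CPM, and the other 5, with Krt5 at 0, stayed under 1 CPM in every library. The cells are therefore called RGCs as the labels do, although most defining RGC markers were near 0. These are bulk libraries, so fewer cells of a type and less RNA per cell cannot be told apart.

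The promoters of Mmp3, Mmp10 and Mmp13 are shown because these 3 neighbouring genes were all lowest with USCs medium, and those of Mmp14 and Timp1 because they were not. Each line gives the 150 bases before the RefSeq transcription start on GRCm38.p6, 5′ to 3′, and capitals mark TGAGTCA or its reverse complement TGACTCA, the binding motif of AP-1 (Fos and Jun family dimers). RefSeq promoters were matched for 7 of the 10 members, and Mmp2, Mmp9 and Mmp19 had no entry.
Mmp3 chr9:7445672-7445821 plus strand: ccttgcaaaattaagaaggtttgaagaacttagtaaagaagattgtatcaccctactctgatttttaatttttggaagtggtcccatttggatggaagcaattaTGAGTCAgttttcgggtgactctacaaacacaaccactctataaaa
Mmp10 chr9:7502192-7502341 plus strand: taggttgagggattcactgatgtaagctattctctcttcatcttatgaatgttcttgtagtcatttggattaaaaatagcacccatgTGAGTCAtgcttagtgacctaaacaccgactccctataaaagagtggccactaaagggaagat
Mmp13 chr9:7272364-7272513 plus strand: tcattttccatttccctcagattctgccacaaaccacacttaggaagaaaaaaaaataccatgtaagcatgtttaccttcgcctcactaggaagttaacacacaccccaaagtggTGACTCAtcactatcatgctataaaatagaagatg
Mmp1a chr9:7463991-7464140 plus strand: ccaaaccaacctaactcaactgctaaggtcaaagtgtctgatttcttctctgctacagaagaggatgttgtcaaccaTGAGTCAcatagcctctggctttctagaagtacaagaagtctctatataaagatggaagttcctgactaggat
Mmp14 chr14:54431448-54431597 plus strand: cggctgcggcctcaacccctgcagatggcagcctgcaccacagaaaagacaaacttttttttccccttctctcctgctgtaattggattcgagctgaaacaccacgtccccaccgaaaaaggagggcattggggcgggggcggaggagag
Timp1 chrX:20870016-20870165 plus strand: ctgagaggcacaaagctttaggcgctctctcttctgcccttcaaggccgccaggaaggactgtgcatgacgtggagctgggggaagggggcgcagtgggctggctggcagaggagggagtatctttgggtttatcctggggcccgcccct

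The AP-1 motif began 46 bases before the start of Mmp3, 63 bases before that of Mmp10 and, on the opposite strand, 35 bases before that of Mmp13. It was not found in the windows of Mmp14, Timp1, Timp2 or Timp3. Windows ran from 250 bases before to 50 bases after a start, and 5.19% of all 32544 held it on either strand. Mmp1a, a collagenase gene that lies between Mmp3 and Mmp10, is shown for comparison and held the motif 73 bases before its start. Of the other genes of the same cluster, Mmp1b held it 93 bases, Mmp12 (at 1 of its 2 starts) 44 bases and Mmp7 (at 1 of its 2 starts) 63 bases before a start. Mmp12, at low counts, showed no clear difference between USCs medium and aging RGCs (log2 fold change 0.10, SE 0.69), and Mmp7 was at 0 in all libraries. The letters TATAAA, the TATA box, began 7, 29 and 16 bases before the starts of Mmp3, Mmp10 and Mmp13, against 13.6% of all windows with a match on either strand. The GC box GGGCGG was found for Mmp14, Timp1, Timp2 and Timp3, and for none of those 3 MMPs, against 35.9% of all windows. The letters AGGAAG, bound by ETS factors, were found for Mmp3, Mmp13, Mmp14, Timp1 and Timp3, against 35.1% of all windows. No window of the 7 members held TTCNNNGAA, the STAT motif, against 8.33% of all windows. None of these matches overlapped another motif, apart from the adjoining GC boxes of Mmp14. A match is a run of letters and was not tested as a binding site.

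The stromelysins cut proteoglycans, laminin and fibronectin, and can activate other proenzymes. Mmp3 (stromelysin-1, chr9:7445822-7455975, plus strand, GRCm38) had 32.3, 28.6 and 33.3 CPM in normal RGCs, 27.5, 30.6 and 28.4 CPM in aging RGCs, and 1.49, 1.09 and 0.615 CPM in aging RGCs + USCs medium. The libraries of normal and aging RGCs overlapped, and those with USCs medium were far below both. The last 3 libraries held 29, 22 and 12 counts of Mmp3 in place of 508 to 595 in aging RGCs. The fitted level was 26.9-fold lower with USCs medium than in aging RGCs, a log2 fold change of -4.75 with a standard error (SE) of 0.14.

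Mmp10 (stromelysin-2, chr9:7502352-7510240, plus strand) was the MMP whose level in aging RGCs was furthest above normal RGCs. It had 22.8, 24.2 and 23.3 CPM in normal RGCs, 31.9, 37.4 and 34.6 CPM in aging RGCs, and 6.37, 6.40 and 7.89 CPM with USCs medium. The 3 groups did not overlap. Aging against normal RGCs gave a log2 fold change of 0.56 (SE 0.076), and USCs medium against aging RGCs gave -2.33 (SE 0.092), 5.03-fold lower. Mmp3 and Mmp10 transcripts share a longest identical run of 104 bases, so some reads could fit either. Fractional counts, the mark of such shared reads, occurred in only 1 of 9 libraries for each of them.

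Mmp13 (chr9:7272514-7283331, plus strand) is the main interstitial collagenase of mouse and cuts fibrillar collagen. It had 23.6, 25.3 and 24.9 CPM in normal RGCs, 18.7, 16.7 and 17.7 CPM in aging RGCs, and 3.60, 3.77 and 3.84 CPM with USCs medium. The order normal, aging, USCs medium held without overlap. The log2 fold change was -0.48 (SE 0.079) for aging against normal RGCs and -2.24 (SE 0.10) for USCs medium against aging RGCs, which is 4.72-fold lower.

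The gelatinases Mmp2 and Mmp9 cut denatured collagen and basement membrane collagen. Mmp9 (chr2:164940780-164955850, plus strand) had 15.1, 17.6 and 13.0 CPM in normal RGCs, 15.7, 16.2 and 16.7 CPM in aging RGCs, and 2.67, 1.84 and 1.28 CPM with USCs medium. Normal and aging RGCs overlapped (log2 fold change 0.09, SE 0.12, and -0.02 without normal RGCs replicate 3), and all libraries with USCs medium were lower than all others. The fitted level with USCs medium was 8.38-fold lower than in aging RGCs, a log2 fold change of -3.07 (SE 0.16). Mmp9 is also made by macrophages and neutrophils, so their markers are given here. Of 13 macrophage markers, none was at 0 in all libraries and 6 were under 1 CPM in every library, and they summed to 60.3 to 71.9 CPM in the normal wells, 45.4 to 52.1 CPM in the aging wells and 31.1 to 56.7 CPM with USCs medium. On average most of that sum was Cd68 (38.6, 41.5 and 31.3 CPM). Lyz2 (15.3, 3.16 and 5.22 CPM) and Adgre1 (1.84, 0.0529 and 0.614 CPM) were lowest in the aging wells, and Csf1r (3.42, 1.13 and 0.662 CPM) with USCs medium. The highest macrophage sum with USCs medium was in replicate 3, the library with the lowest Mmp9. Of 8 neutrophil markers, 6 were at 0 in all libraries, and the list summed to 4.55 to 5.28 CPM in the normal, 6.22 to 6.89 CPM in the aging and 2.41 to 3.42 CPM in the USCs medium wells, nearly all of it Ly6g. The 5 endothelial markers, none of them at 0 in all libraries, summed to 12.1 to 14.1, 8.91 to 10.8 and 1.94 to 2.98 CPM, most of it Cdh5 (10.98, 7.16 and 1.42 CPM). The neutrophil and endothelial sums were lowest with USCs medium, as Mmp9 was. The part of any of these cell types in the MMP values was not tested.

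Mmp2 (chr8:92827291-92853420, plus strand) differed less. It had 21.4, 19.97 and 18.5 CPM in normal RGCs, 15.6, 14.4 and 15.4 CPM in aging RGCs, and 9.09, 8.49 and 9.37 CPM with USCs medium. The groups did not overlap and again ran from normal through aging to USCs medium. The log2 fold change was -0.40 (SE 0.086) for aging against normal RGCs, -0.75 (SE 0.095) for USCs medium against aging RGCs and -1.15 (SE 0.092) for USCs medium against normal RGCs. Mmp2 is typical of mesenchymal cells. The 10 fibroblast and mesenchymal markers, of which none was at 0 in all libraries and 5 were under 1 CPM in every library, summed to 457 to 538 CPM in the normal wells, 423 to 437 CPM in the aging wells and 267 to 272 CPM with USCs medium. Most of that sum was the fibrillar collagen gene Col3a1 (447, 389 and 235 CPM). Col1a1 (14.7, 7.99 and 7.10 CPM) and Pdgfrb (4.90, 2.86 and 1.15 CPM) ran in the same order as Col3a1 and Mmp2. Twist1 averaged 22.2, 23.6 and 20.1 CPM and Pdgfra 6.60, 4.65 and 5.40 CPM. The part of mesenchymal cells in the Mmp2 values was not tested.

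Mmp14 (MT1-MMP, chr14:54431612-54445364, plus strand) sits in the plasma membrane and activates the proenzymes of Mmp2 and Mmp13. It had 155, 151 and 150 CPM in normal RGCs, 138, 144 and 144 CPM in aging RGCs, and 143, 154 and 149 CPM with USCs medium. The libraries with USCs medium overlapped both other groups. Log2 fold changes were -0.10 (SE 0.038) for aging against normal RGCs, 0.06 (SE 0.038) for USCs medium against aging RGCs (-0.01 without TMM factors, the scaling between libraries) and -0.04 (SE 0.037) for USCs medium against normal RGCs.

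Mmp19 (chr10:128790910-128800824, plus strand), which cuts basement membrane proteins, was the MMP that was higher with USCs medium by a wide margin. It had 41.3, 46.4 and 43.3 CPM in normal RGCs, 26.2, 24.9 and 22.1 CPM in aging RGCs, and 83.7, 87.0 and 86.9 CPM with USCs medium. Aging RGCs were lowest, USCs medium highest, and no groups overlapped. The log2 fold change was -0.84 (SE 0.064) for aging against normal RGCs and 1.82 (SE 0.061) for USCs medium against aging RGCs, 3.52-fold higher. Against normal RGCs it was 0.98 (SE 0.056). Mmp19 overlaps Tmem198b on the opposite strand over 789 exon bases, and its counts were fractional in 9 of 9 libraries. In each library the fractions of both genes added up to a whole count, as with 952.6 and 860.4 in normal RGCs replicate 1. Reads that fit both were thus split between them without regard to strand, and part of the Mmp19 count could belong to Tmem198b. No source states whether the libraries kept strand. Tmem198b averaged 37.4 CPM in the normal, 38.5 CPM in the aging and 36.2 CPM in the USCs medium wells, with log2 fold changes of 0.05 (aging against normal RGCs) and -0.09 (USCs medium against aging RGCs), at edgeR quasi-likelihood, Benjamini-Hochberg adjusted p = 0.589 and 0.243.

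**Figure D1:**
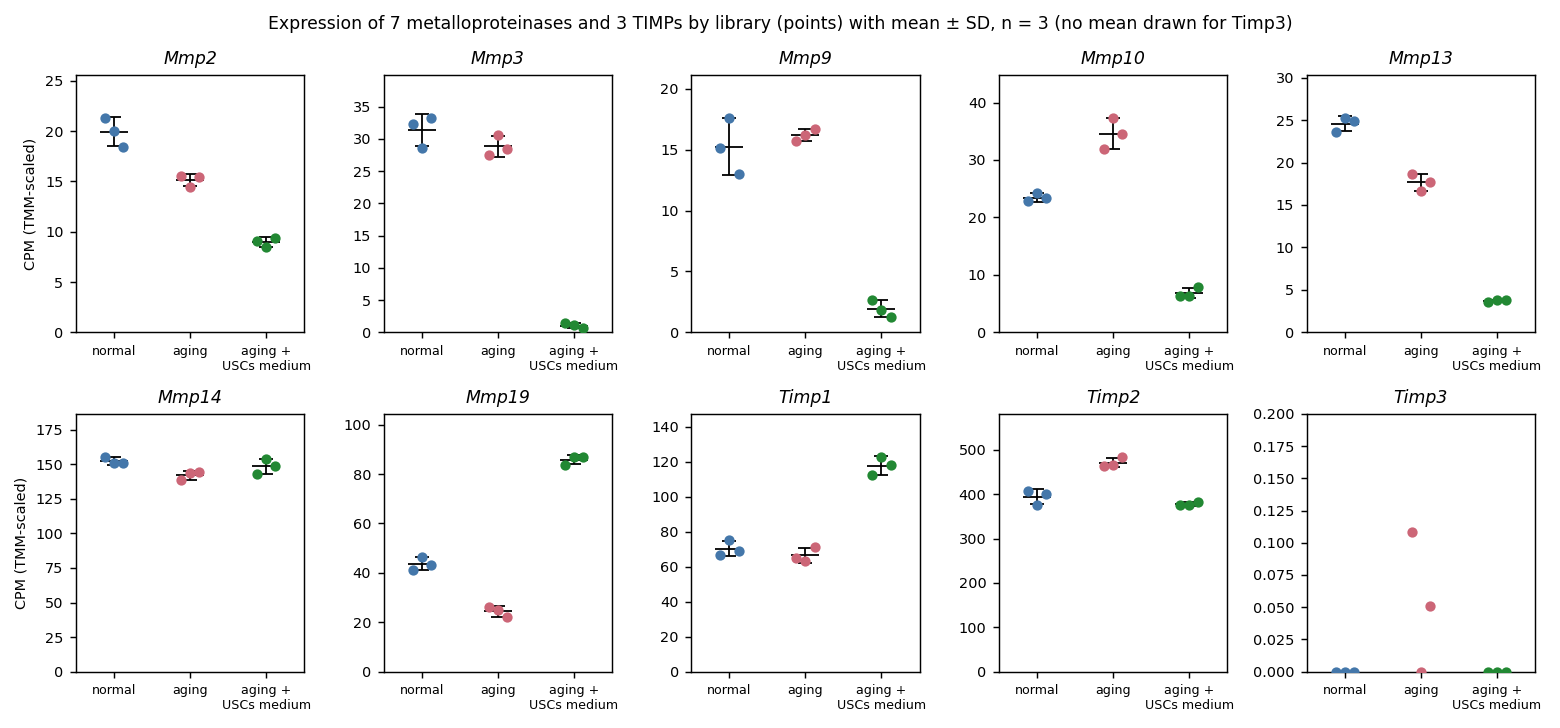
Level of each of the 10 members in CPM, 1 panel per gene with its own axis, with 3 libraries per group. Points are libraries and bars the mean ± SD (n = 3), with no mean for Timp3. Mmp3, Mmp9, Mmp10 and Mmp13 are lowest with USCs medium, where Mmp3 lies between 0.615 and 1.49 CPM, and Mmp19 and Timp1 are highest there.

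Of the inhibitors, Timp1 (chrX:20870166-20874735, plus strand) is the secreted inhibitor most readily induced by cytokines. It had 66.9, 75.1 and 69.1 CPM in normal RGCs, 65.0, 63.0 and 71.4 CPM in aging RGCs, and 112, 123 and 118 CPM with USCs medium. Normal and aging RGCs overlapped and USCs medium stood above both. The log2 fold change for USCs medium against aging RGCs was 0.82 (SE 0.051), 1.77-fold higher. Timp1 overlaps Syn1 on the opposite strand and shares no exon base with it.

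Timp2 (chr11:118301069-118355740, minus strand), which both inhibits Mmp2 and helps Mmp14 to activate it, had 408, 376 and 401 CPM in normal RGCs, 464, 466 and 485 CPM in aging RGCs, and 375, 375 and 383 CPM with USCs medium. Aging RGCs stood above both other groups, which overlapped each other. The log2 fold change was 0.26 (SE 0.033) for aging against normal RGCs and -0.32 (SE 0.033) for USCs medium against aging RGCs. Timp3 (chr10:86300372-86349506, plus strand), the inhibitor that binds to the matrix, had 2 counts in aging RGCs replicate 1, 1 count in aging RGCs replicate 3 and 0 in all other libraries. It overlaps Syn3 on the opposite strand over 1733 exon bases, so some reads could fit either. Syn3 itself had at most 7 counts in a library. A count of 0 allows up to 3 counts, or 0.130 to 0.162 CPM per library, for counting error only, so no difference in Timp3 was detectable at this depth.

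No tested member differed between aging and normal RGCs by at least 1 on the log2 scale, where 2.65% of all genes passed that line and an adjusted p under 0.05 (1.09% higher and 1.56% lower). In USCs medium against aging RGCs, 5 of 9 members were past both lines, against 5.44% of all genes: 1 higher (Mmp19), against 1.24%, and 4 lower (Mmp3, Mmp9, Mmp10 and Mmp13), against 4.21%. In USCs medium against normal RGCs, 5 of 9 were past both lines, all lower (Mmp2, Mmp3, Mmp9, Mmp10 and Mmp13), against 6.72% of all genes, of which 5.24% lower and 1.47% higher. Past the adjusted p line alone, whatever the fold change, were 2 higher and 4 lower members in aging against normal RGCs (all genes 46.5%, with 23.6% higher and 23% lower), 2 and 6 in USCs medium against aging RGCs (53.1%, with 27.1% and 26%), and 2 and 5 in USCs medium against normal RGCs (60.5%, with 30.6% and 29.9%). Groups did not overlap for 6, 8 and 7 of the 9 members in these comparisons in turn, against 53%, 59.8% and 63.8% of all genes. Since the choice of members used these contrasts, nothing is read from the counts. The members' median log2 fold change was -0.10, -0.75 and -1.15, and that of all genes 0.0018, -0.0067 and -0.013. Each group serves in 2 of the 3 comparisons, so they are not independent.

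**Figure D2:**
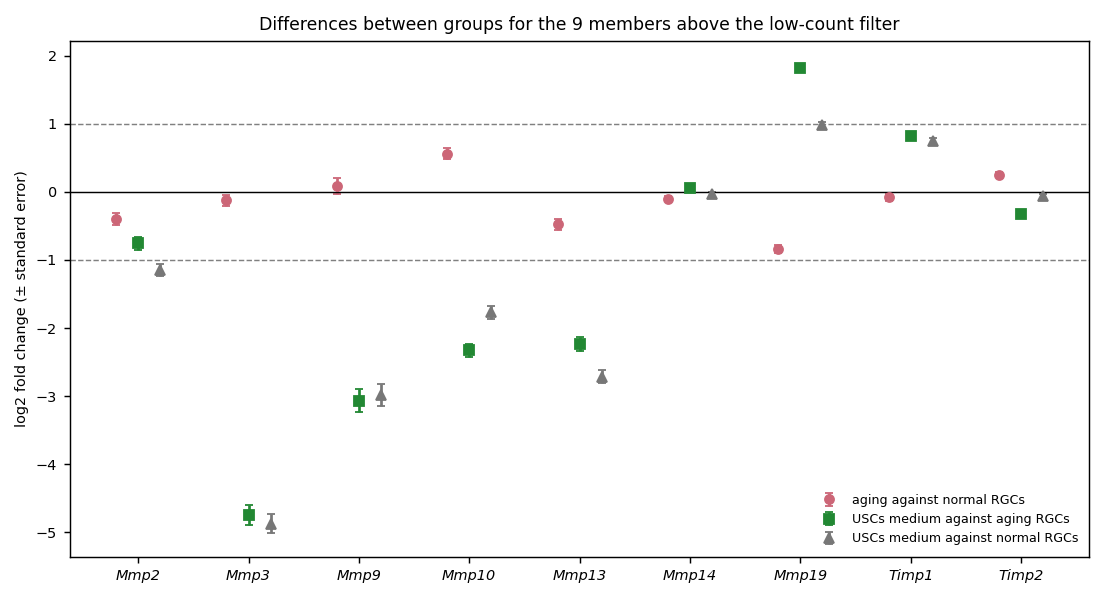
Fitted log2 fold change of the 9 tested members in the 3 comparisons, with bars of ± 1 SE. Aging against normal RGCs lies within 1 log2 unit of 0 for every tested member, and USCs medium against aging RGCs runs from -4.75 for Mmp3 to 1.82 for Mmp19.

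Levels of different genes were compared as FPKM, which divides by transcript length. In normal RGCs the order by mean FPKM was Timp2 (110), Timp1 (84.1), Mmp14 (61.2), Mmp3 (17.9), Mmp19 (16.02), Mmp10 (14), Mmp13 (9.45), Mmp2 (6.66) and Mmp9 (4.94). In this order Mmp3 and Mmp19 overlapped and no other neighbours did. In aging RGCs Mmp10 (20.3) stood next after Mmp14 (56.2), ahead of Mmp3 (16.2), Mmp19 (8.58) and Mmp13 (6.70), and Mmp9 (5.16) and Mmp2 (4.98) overlapped at the end. With USCs medium Timp1 (131) stood above Timp2 (97.9), Mmp19 (29.1) came directly after Mmp14 (56.0), and the rest followed at 3.84 for Mmp10, 2.80 for Mmp2, 1.34 for Mmp13, 0.58 for Mmp9 and 0.567 for Mmp3. There only Mmp9 and Mmp3 overlapped. Timp3 stood last in each group.

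Summed over the 7 MMPs, FPKM was 130 ± 2.30 (SD, n = 3) in normal RGCs, 118 ± 2.80 in aging RGCs and 94.2 ± 3.18 with USCs medium. Without Mmp14, the most abundant MMP, the sums were 69.0 ± 0.749, 62.0 ± 2.05 and 38.2 ± 0.645. The share of Mmp14 in the MMP sum was 47.0%, 47.5% and 59.4%, and that of Mmp19 12.3%, 7.27% and 30.9%. Mmp3 made up 13.8%, 13.7% and 0.606% of it. The 3 TIMPs summed to 194 ± 0.745, 208 ± 7.25 and 229 ± 6.37 FPKM, and the share of Timp2 in that sum was 41.5% to 43.9% with USCs medium in place of 61.1% to 63.4% in aging RGCs. The ratio of TIMP to MMP sums was 1.49 ± 0.0215 in normal RGCs, 1.76 ± 0.0705 in aging RGCs and 2.43 ± 0.0185 with USCs medium. Its 3 groups did not overlap, but the genes summed were chosen by their levels and fold changes, so nothing is read from this. The sums leave out the 17 other MMP and TIMP genes. FPKM values are relative to all RNA of a library, so these sums are not amounts of protein.

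**Figure D3:**
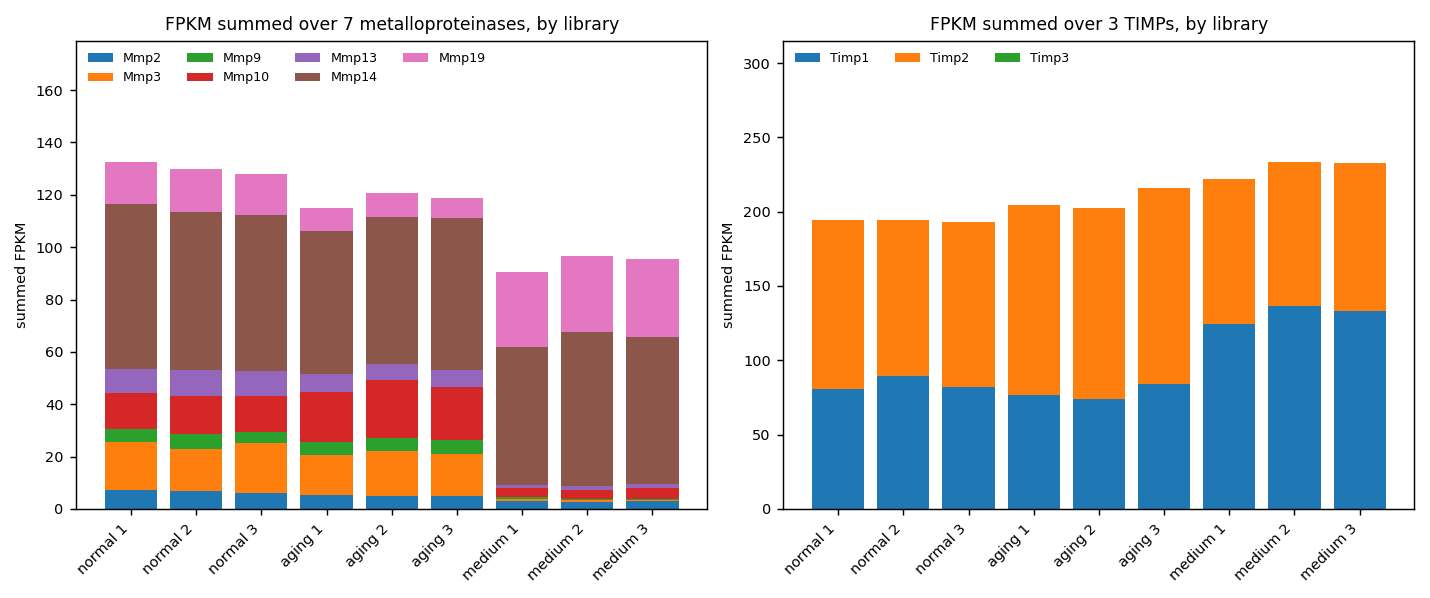
Summed FPKM of the 7 MMPs and of the 3 TIMPs in each of the 9 libraries, stacked by gene. The MMP sum is 90.7 to 96.8 FPKM with USCs medium against 115 to 121 FPKM in aging RGCs, while the TIMP sum is 222 to 233 against 202 to 216 FPKM.

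Mmp3, Mmp10 and Mmp13 lie in a cluster of 10 MMP genes over 427 kb of chromosome 9 (chr9:7272514-7699585), of which 6 were tested. The 3 cluster genes that were tested and are not members are Mmp1a and Mmp1b, the rodent relatives of interstitial collagenase, and Mmp12, the macrophage elastase. Mmp1a had 34, 18 and 17 counts in normal RGCs, 11, 15 and 15 in aging RGCs, and 4, 5 and 3 with USCs medium. It fell with USCs medium against aging RGCs, with a log2 fold change of -1.78 (SE 0.51, edgeR quasi-likelihood test, Benjamini-Hochberg adjusted p = 0.00471). Mmp1b had 21, 23 and 21 counts in normal RGCs, 12, 13 and 28 in aging RGCs, and 4, 2 and 1 with USCs medium, and fell by 2.89 on the log2 scale (SE 0.58, edgeR adjusted p = 0.000115). Both genes were called down in this comparison by the same lines as above, from 5 counts or fewer per library with USCs medium. Both calls were lost in limma on log2(FPKM + 1), and that of Mmp1a also under a filter of 1 CPM in 3 libraries. They share a longest identical run of 134 bases, so some reads could fit either, although the counts of both genes were whole in all 9 libraries. Mmp12 had 10, 40 and 10 counts, then 14, 4 and 11, then 3, 3 and 26, and its span overlaps that of Mmp1b on the opposite strand. Its log2 fold change for USCs medium against aging RGCs was 0.10 with an SE of 0.69, and most of its counts with USCs medium came from replicate 3. Without Mmp12, the macrophage markers summed to 55.4 CPM in USCs medium replicate 3, the highest of that group. They summed to 61.1 CPM in normal RGCs replicate 2, which had 40 counts of Mmp12, and 71.5 CPM in normal RGCs replicate 1, which had 10. On average most of that sum was Cd68, and the part of macrophages in the Mmp12 counts was not tested. In the right part of the cluster, Mmp8, Mmp20 and Mmp7 were at 0 in all 9 libraries and Mmp27 had 19 counts in all.

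**Figure D4:**
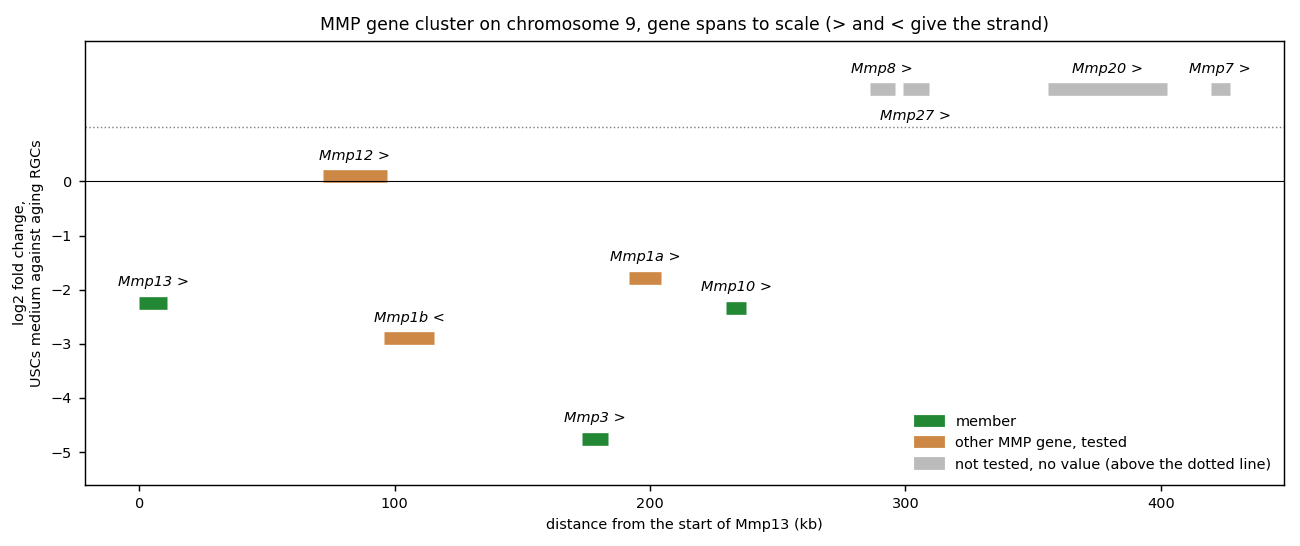
The MMP gene cluster on chromosome 9, with distance from the start of Mmp13 in kb on the x axis and the log2 fold change of USCs medium against aging RGCs on the y axis. Bars are gene spans, green for members, orange for other tested MMP genes and grey, above the dotted line, for genes with no value. Of the 6 tested genes, 5 lie between -1.78 and -4.75, and Mmp12 lies at 0.10, with an SE of 0.69 that is not drawn.

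By Pearson's r of log2 CPM over the 9 libraries, the genes with the pattern most like Mmp3 were Hhla1 (r = 0.994), Btg2 (r = 0.994) and Mmp9 (r = 0.993). Those most like Mmp10 were Mertk (r = 0.997), Col16a1 and Slc16a4, and those most like Mmp13 were Sgms2 (r = 0.997), Chd6 and Tecpr1. Mmp2 was followed by Zbtb4 (r = 0.996), Tmtc1 and Inpp5d, and Mmp19 by Gcnt2 (r = 0.995), Smim3 and the transglutaminase gene Tgm2. Timp1 was most like Tfg (r = 0.994), Chordc1 and Psmc6, and Timp2 like Tef (r = 0.992), Hexim1 and Gusb. Mmp14 had a looser match in Creb3l2 (r = 0.936), Lmo1 and Kifap3, and Mmp9, beside Mmp3, in Neurl3 (r = 0.991) and St3gal5. Among members, Mmp3 and Timp1 ran opposite to each other (r = -0.977), as did Mmp19 and Mmp10 (r = -0.959) and Mmp19 and Timp2 (r = -0.917). The 9 points fall into 3 groups, whose means set most of each r.

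Among the other MMP, TIMP, ADAM and ADAMTS genes and inhibitors (84 on the list, 27 tested), 2 rose and 5 fell with USCs medium against aging RGCs. Of all genes 1.24% rose and 4.21% fell. The median log2 fold change of the tested list genes was -0.16. The sheddase Adam8 rose from 19.3 ± 1.13 to 78.9 ± 3.66 CPM (SD, n = 3), which is 2.03 on the log2 scale (SE 0.084, edgeR adjusted p = 2.02e-17). Adam12 rose from 0.898 ± 0.242 to 3.42 ± 0.664 CPM. Adamts7, which cuts cartilage oligomeric matrix protein, fell from 7.08 ± 1.28 to 2.51 ± 0.562 CPM. Adamtsl2 and Adam19 fell from lower levels (Adam19 not without aging RGCs replicate 2), as did Mmp1a and Mmp1b above. The tested MMP genes outside both the members and the cluster were Mmp11, Mmp28 and Mmp24, and none was called in any comparison. Mmp11 averaged 12.8, 10.9 and 9.93 CPM in the normal, aging and USCs medium wells, and Mmp28 8.91, 5.29 and 4.49 CPM. Their log2 fold changes for USCs medium against aging RGCs were -0.14 (SE 0.10) and -0.23 (SE 0.14). That of Mmp24, near 1 CPM, was -0.88 (SE 0.37). Reck, a membrane-anchored inhibitor of MMPs and the sole gene of its list that was tested, averaged 2.94 CPM in the normal, 1.84 CPM in the aging and 1.72 CPM in the USCs medium wells and was not called in any comparison. In aging against normal RGCs, Adam12 and Adamtsl2 were the 2 genes called of 27, both up and both under 1 CPM on average, where 1.09% of all genes rose. The call of Adam12 was lost without normal RGCs replicate 1 or aging RGCs replicate 2 or 3, and that of Adamtsl2 without replicate 1 or 3 of either group. Adamtsl2 passed the low-count filter through the aging wells, where it was highest, so nothing is read from its rise and fall.

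Genes that activate or induce MMPs, or control such genes (79 on the list, 62 tested), gave 2 that rose and 4 that fell with USCs medium against aging RGCs. Of all genes 1.24% rose and 4.21% fell. The median log2 fold change of the tested list genes was -0.02. Plau, the urokinase that turns plasminogen into plasmin, fell from 55.3 ± 1.03 to 25.6 ± 1.61 CPM, or by 1.11 on the log2 scale (SE 0.057, edgeR adjusted p = 2.32e-15). It was also called down with USCs medium against normal RGCs (log2 fold change -1.23, edgeR adjusted p = 8.52e-17). Plat, the tissue plasminogen activator, averaged 160, 144 and 78.2 CPM and was called down against normal RGCs alone (log2 fold change -1.03, edgeR adjusted p = 2.27e-17). Serpinb2, a urokinase inhibitor, rose against normal RGCs with a log2 fold change of 1.36 (SE 0.090, edgeR adjusted p = 2.78e-13). Hpn, the membrane protease hepsin, fell from under 1 CPM.

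Of 23 tested transcription factors listed as regulators of MMP genes, Fos alone (4.35%) was called in USCs medium against aging RGCs, against 5.44% of all genes. It rose from 2.32 ± 0.322 to 4.83 ± 0.861 CPM. Its log2 fold change was 1.05 (SE 0.20, edgeR adjusted p = 6.56e-05), and the call was lost without aging RGCs replicate 1, without aging RGCs + USCs medium replicate 2, without TMM factors and in both fits to FPKM. Among 29 tested inducers and receptors, the oncostatin M receptor gene Osmr averaged 27.0, 11.7 and 79.4 CPM and was called in all 3 comparisons. Pdgfrb (2.86 ± 0.160 to 1.15 ± 0.211 CPM) and Il1rn (10.002 ± 0.519 to 4.74 ± 0.134 CPM) fell with USCs medium against aging RGCs. Il1rn encodes the antagonist of the interleukin-1 receptor and is thus not itself an inducer.

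Surface partners and matrix substrates of MMPs (48 on the list, 37 tested) gave 2 that rose and 2 that fell with USCs medium against aging RGCs. Of all genes 1.24% rose and 4.21% fell. The median log2 fold change of the tested list genes was -0.12. Tnc, the matrix glycoprotein tenascin C, averaged 26.0 ± 1.73 CPM in normal RGCs, 56.6 ± 3.48 CPM in aging RGCs and 10.8 ± 0.920 CPM with USCs medium. It rose by 1.12 on the log2 scale in aging against normal RGCs (edgeR adjusted p = 8.05e-14) and fell by 2.39 with USCs medium (edgeR adjusted p = 5.8e-20). Thbs2, a matrix protein that clears Mmp2 from the cell surface, fell from 32.2 ± 1.45 to 14.3 ± 0.682 CPM. Vcan, the proteoglycan versican, rose from 108 ± 1.29 to 266 ± 4.13 CPM, as did Lcn2, whose product binds the Mmp9 protein. Against normal RGCs, 3 of 37 rose and 6 fell (all genes 1.47% and 5.24%), among the latter Fn1 (fibronectin, 1002 to 465 CPM) and Spp1 (osteopontin, 1329 to 545 CPM). These lists were drawn up with earlier results of these data known, and 5.44% of all genes were called in USCs medium against aging RGCs, against 25.9%, 9.68% and 10.8% of the 3 lists.

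**Figure D5:**
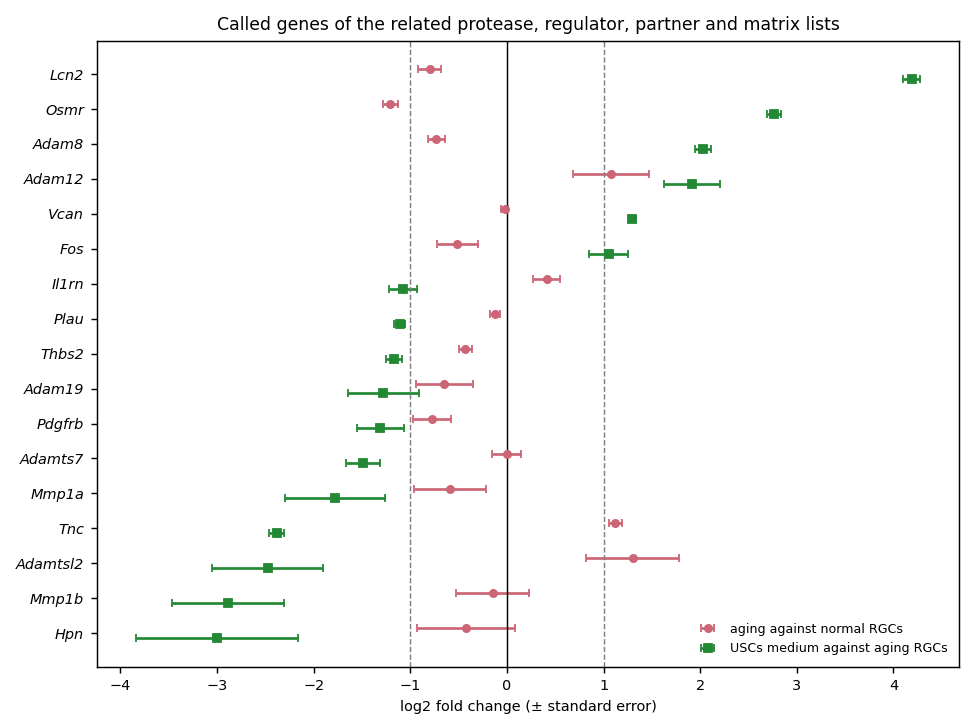
Log2 fold change with bars of ± 1 SE for the 17 related genes called in aging against normal RGCs (red circles) or in USCs medium against aging RGCs (green squares), with dashed lines at -1 and 1. Osmr and Tnc pass the lines in opposite directions in the 2 comparisons, which share the aging wells. Adamtsl2 does so too, at 0.315, 0.780 and 0.136 CPM in the normal, aging and USCs medium wells. It passed the low-count filter through the aging wells, where it was highest, so nothing is read from its course. Of the 2 comparisons drawn, Plau passes in USCs medium against aging RGCs alone, at -1.11.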

How the data were processed

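RNA was enriched for mRNA with oligo(dT) from 9 libraries, 3 wells per group, and each group was read from its label. The authors deposited 1 table with an expected count per gene and well, estimated from reads without normalization, and an FPKM value that they had divided by transcript length and library size. The submitters' processing notes name mm10, while neither the aligner nor the counter is given in the sources used here. From 6.92% to 7.38% of the expected counts in a library were not whole and were rounded. CPM were computed here from these counts and library sizes scaled by TMM factors.

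Genes kept by filterByExpr (12145 of 22322) were fitted with edgeR 4.0.16 in R 4.3.3, with 1 mean per group over 9 libraries, TMM factors and the quasi-likelihood F test, and p was adjusted by Benjamini-Hochberg over all genes tested. A gene was called when adjusted p was under 0.05 and the absolute log2 fold change at least 1. The method was tested on simulated data. The SE of a log2 fold change is its size divided by the square root of F. The alternatives used DESeq2 1.42.0, limma 3.58.1 on log2(FPKM + 1) and log2(FPKM + 0.1), other scalings and filters, a replicate block, only the groups compared, and each library left out in turn. Gene positions are from GENCODE M21 on GRCm38, where 22267 identifiers matched, and promoters from RefSeq on GRCm38.p6. Counting intervals and floors cover counting error only.

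The members and the gene lists were chosen with earlier results of these data known. All 10 members are named, then the 3 genes most like each tested member, then up to 5 called genes per list and comparison. The other tested MMP genes are also named. A gene that is not reported here was left out of its list and of the counts of that list. Replicates of a group correlated at 0.9898 or more across genes and libraries of different groups at 0.981 or less.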

Additional observations from a re-analysis of the deposited data

How the results depend on the processing

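No difference of a tested member past both lines changed direction in the alternatives run, and the 5 members past both lines in each comparison with USCs medium stayed past them in DESeq2, both limma fits, the other scalings and filters, and every fit with a library left out. Differences near 0 changed sign for Mmp9 in aging against normal RGCs (without normal RGCs replicate 3) and for Mmp14 in USCs medium against aging RGCs (without TMM factors and in both limma fits). Members past both lines numbered 0 in aging against normal RGCs, also by DESeq2 and limma. Leaving out a library gave 0, 5, and 5 to 6 members in aging against normal RGCs, USCs medium against aging RGCs and USCs medium against normal RGCs, the sixth being Mmp19 without normal RGCs replicate 2. With no fold-change line, the first 2 comparisons had 6 and 8 members, 10 and 17 other family genes (20 in USCs medium against normal RGCs), and 32 and 36 activation and induction genes (40 in the last). In limma on log2(FPKM + 1), which shrinks the changes of low genes, family calls were 0, 1 and 1 and activation and induction calls 0, 2 and 5 in the 3 comparisons in order. The 2 family calls in aging against normal RGCs became 1 in DESeq2, without the low-count filter, with 1 CPM in 3 libraries and with limma on log2(FPKM + 0.1). Leaving out a library gave 0 to 3 family calls there, not always of these genes (0 without aging RGCs replicate 3, 1 without normal RGCs replicate 1, which was Mmp25, called down, and 1 without normal RGCs replicate 3, which was Adam12), and 1 to 2 activation and induction calls in place of 1 (2 without normal RGCs replicate 3, where Atf3 was added to Osmr). In the comparisons with USCs medium those counts were 7 to 8 and 6 to 9 for the family, and 5 to 6 and 8 to 9 for activation and induction.

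Replicate numbers did not pair the libraries, since deviations of same-numbered wells correlated at -0.033 to 0.047. With a replicate block, the counts were 0, 5 and 5 members, 2, 7 and 6 family genes, and 1, 6 and 9 activation and induction genes, as without it. Without TMM factors the median of all genes shifted to -0.113 in USCs medium against normal RGCs. Called genes in aging against normal RGCs numbered 132 up and 190 down, and 19 up and 47 down in limma on log2(FPKM + 1). In USCs medium against aging RGCs they numbered 150 and 511, and 53 and 76 in that fit, and in USCs medium against normal RGCs 179 and 637, and 62 and 167. With 12 to 29 counts of Mmp3 and 25 to 52 of Mmp9 in the libraries with USCs medium, depth limits the size of those differences, not their side.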
